A study of Mus musculus with 6 samples.

Results

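The 31 genes described here encode the pyruvate dehydrogenase complex and its regulators, the enzymes of the tricarboxylic acid (TCA) cycle other than succinate dehydrogenase, and the enzymes that feed carbon into the cycle or draw it off. They were chosen by name, as genes of these pathways. All 31 were matched to probes of the arrays, out of 23458 genes matched in all, and 28 of the 17058 genes that could be tested were among them. RNA of BV2 cells, an immortalized mouse microglial line, was measured on 6 Agilent arrays, all after lipopolysaccharide (LPS), a bacterial membrane component that provokes an inflammatory response. The 3 control arrays held cells without PGC-1α overexpression and the other 3 held cells labelled PGC-1α overexpression. In the methods, the coding sequence was delivered by a lentivirus with puromycin selection, controls received a negative control virus, and LPS was given at 500 ng/ml for 6 h, although those methods do not name the arrays. The labels do not say whether the 3 arrays of a group came from separate cultures, so p-values measure only the spread between these arrays, which may be technical. The comparison addressed how raising PGC-1α, a transcriptional coactivator known for its part in mitochondrial gene expression, altered gene expression in LPS-treated microglial cells.

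The pyruvate dehydrogenase complex converts pyruvate, the end product of glycolysis, to acetyl-CoA inside mitochondria. Pyruvate dehydrogenase kinases switch it off by phosphorylation and phosphatases switch it back on. Acetyl-CoA then enters the TCA cycle as citrate, and the cycle yields the reducing power for respiration. In macrophages and microglia, LPS is known to alter this route, and citrate, itaconate and succinate are known for roles in the inflammatory response.

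Levels are log2 intensities relative to the 75th percentile of each array, so that a gene at 0 was as bright as that percentile, and levels are not compared between genes. Differences are PGC-1α overexpression minus control on the log2 scale, with the standard error (SE) of the limma fit, and a gene was called higher or lower at a Benjamini-Hochberg adjusted p of 0.05 or less over the 17058 genes. The control arrays had a 75th percentile intensity of 1617 to 1893 and those labelled PGC-1α overexpression one of 856 to 1268, so the groups differed in overall brightness, and comparisons are given after quantile normalization as well. The targeted gene, Ppargc1a, gave no firm check of the labels, because each of its 2 probes fell short of a signal well above background on at least 1 array in both groups. One probe read -6.21, -6.37 and -7.71 on the control arrays against -5.70, -5.28 and -5.90, and the other -6.84, -6.33 and -7.10 against -7.00, -6.11 and -6.40. The first probe was higher on every PGC-1α array and the second overlapped. Of 13 microglial and macrophage markers, 11 were well above background on all 6 arrays, the exceptions being Cx3cr1 and P2ry12. Of the markers of other cell types, 3 of 5 for astrocytes, 3 of 5 for neurons, 4 of 4 for oligodendrocytes and 4 of 4 for fibroblasts were also well above background on every array, and none of these lists was at 0. Relative to the 75th percentile of each array, the summed linear level was 78.6 to 81.3 in controls and 108 to 124 in PGC-1α cells for the microglial list, 0.262 to 0.308 and 0.438 to 0.568 for the astrocyte list, 22.1 to 27.9 and 35.3 to 48.5 for the neuron list, 1.02 to 1.14 and 1.16 to 1.30 for the oligodendrocyte list, and 15.4 to 16.5 and 26.6 to 32.01 for the fibroblast list. Every list thus summed higher on all PGC-1α arrays on this scale. On unscaled intensities the oligodendrocyte list summed lower on every PGC-1α array, at 1116 to 1475 against 1680 to 1939 in controls. The other lists overlapped between the groups there. Of 11 tested microglial markers, 4 were called higher and 1 lower, where 36.9% and 19.6% of all genes tested were. The lower one was Tmem119, which fell by 2.68 (SE 0.18, limma adjusted p = 4.35e-05). Of the 4 fibroblast markers, Col1a1, Col1a2 and Dcn rose by 0.77, 1.12 and 0.97 while Pdgfra fell by 1.63. After quantile normalization none of these 4 changed sign, but Col1a1, at 0.22, was no longer called. Of the tested neuron markers, only Snap25 had means above the 75th percentile, 4.65 in controls and 5.35 in PGC-1α cells. The part of these shifts in the results was not tested. All arrays were of BV2 cells. A change in the number of cells of a type and a change in RNA per cell cannot be told apart in bulk RNA.

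Regulators of pyruvate dehydrogenase moved in opposite directions. The kinases Pdk2 and Pdk3 were higher, and the phosphatase Pdp1 and the complex subunit Pdhx lower, under both scalings. The malic enzymes Me1 and Me2 and the succinyl-CoA ligase subunit Sucla2 were also higher under both. For most enzymes of the cycle itself, the difference depended on the scaling. With the 75th percentile, 18 of the 28 members were higher, where 36.9% of all genes tested were, and 2 were lower, where 19.6% were. After quantile normalization, 5 were higher against 23.1% of all genes and 3 were lower against 22.3%. Pdk2 passed the filter on dim probes only through the PGC-1α arrays, where it was high, and without it 17 of 27 members were higher with the 75th percentile and 4 of 27 after quantile normalization. In both scalings and the same direction, 5 were higher against 23.0% and 2 were lower against 19.0%. The median difference of the 28 members was 0.52, with 0.23 for all genes, and after quantile normalization it was 0.06, with 0.03 for all genes. An adjusted p of 0.05 or less with a change of at least 2-fold was reached by 4 members, Pdk2, Me2, Pdhx and Pdp1, where 14.2% of all genes tested reached it in either direction.

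**Figure D1:**
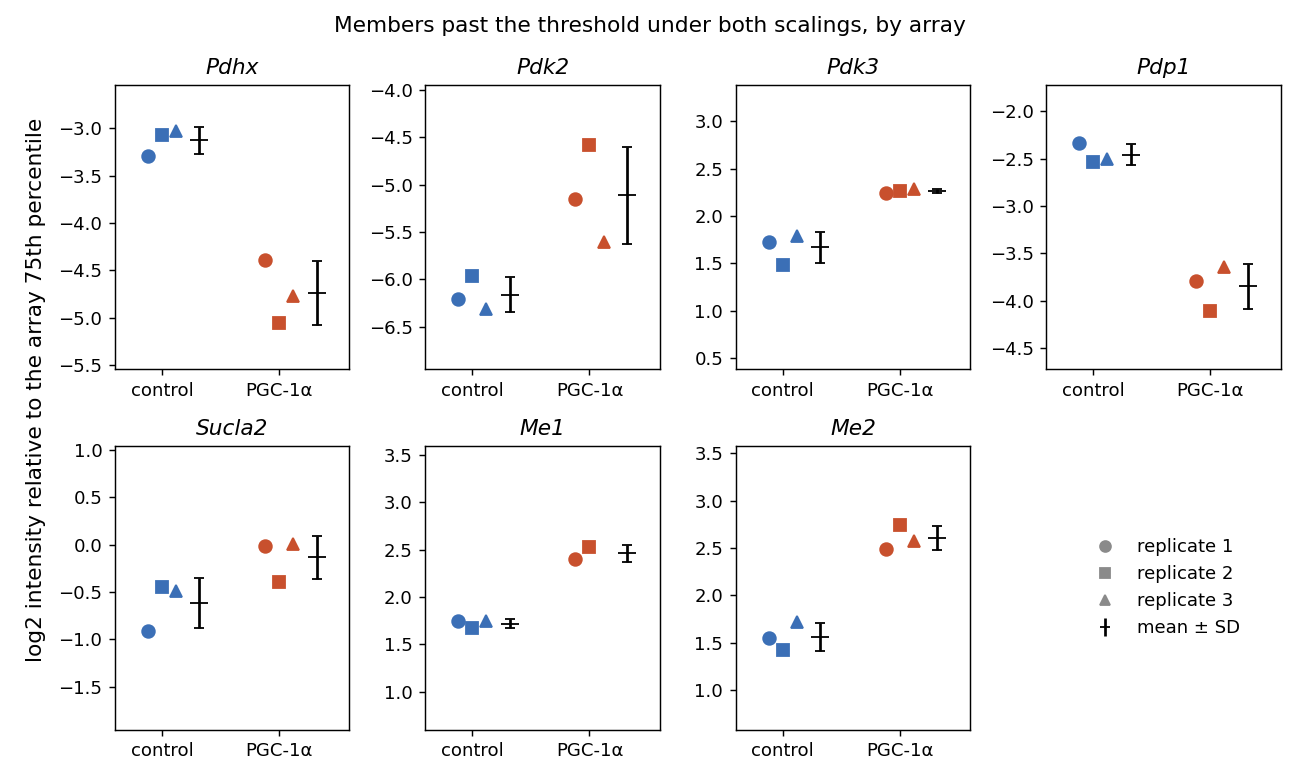
Log2 intensity relative to the array 75th percentile (vertical axis, 3 log2 units in each panel) on each control and each PGC-1α array, for the 7 members called in the same direction under both scalings. Black bars are the mean ± SD, and in each panel the groups do not overlap, with Pdhx and Pdp1 lower and the other 5 higher on the PGC-1α arrays.

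The promoters of Pdhx and Pdk3 are shown because these genes regulate or build the same complex, are each listed with 1 start, and moved in opposite directions under both scalings. Those of Got1 and Idh3g are shown in part because they hold a motif of a factor that works with PGC-1α or in mitochondrial gene expression. All 4 are from RefSeq in the build GRCm38.p6, on the minus strand, written 5′ to 3′. The first 2 cover the 250 bases before the transcription start, chr2:103073514-103073763 and chrX:93832151-93832400, and the others stretches of the same window, chr19:43524816-43524855 and chrX:73786993-73787052. Capitals mark the motifs AAGGTCA, the core of the site of oestrogen-related receptors, in Got1 and AAGATGGCG, a site of YY1, in Idh3g.
Pdhx: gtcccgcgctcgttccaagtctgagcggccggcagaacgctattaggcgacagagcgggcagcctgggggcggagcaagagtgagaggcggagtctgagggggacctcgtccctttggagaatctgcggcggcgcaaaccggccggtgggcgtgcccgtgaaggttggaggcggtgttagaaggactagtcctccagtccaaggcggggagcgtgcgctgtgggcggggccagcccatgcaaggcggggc
Pdk3: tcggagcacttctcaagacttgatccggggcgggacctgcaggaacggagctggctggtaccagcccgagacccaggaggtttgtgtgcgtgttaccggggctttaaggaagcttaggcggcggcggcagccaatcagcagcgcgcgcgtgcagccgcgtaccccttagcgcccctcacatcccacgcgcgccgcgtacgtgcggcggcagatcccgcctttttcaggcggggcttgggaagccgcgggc
Got1: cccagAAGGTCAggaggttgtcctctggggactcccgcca
Idh3g: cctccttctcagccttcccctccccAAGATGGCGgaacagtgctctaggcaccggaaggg

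Motifs were searched on both strands from 250 bases before to 50 after the start, in 32851 promoters, of which 38 belonged to 28 members. Pdp1, Me2 and Idh3a were not among them. The longer receptor site TCAAGGTCA, which contains the core AAGGTCA, was in none of the 38 and in 0.423% of all promoters. The core alone was in 2 of the 38, those of Got1 and of 1 start of Ogdh, and in 4.72% of all. The NRF-1 core GCGCATGCG was in 2 of the 38, both of Ogdh starts whose windows overlap, and in 1.75% of all. The YY1 motif AAGATGGCG was in 1 of the 38, that of Idh3g, and in 1.40% of all. Neither Pdhx nor Pdk3 held any of these letters.

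Within the complex itself, Pdhx, which encodes the protein that anchors the E3 enzyme to the core, had the largest fall of the 28 tested members under both scalings, though not with normexp, where Pdp1 fell more. Its level was -3.29, -3.07 and -3.03 in control cells, against -4.39, -5.06 and -4.78 in PGC-1α cells. Every PGC-1α array lay more than 1 log2 unit below every control array. The difference was -1.61 (SE 0.18, n = 3 per group, limma adjusted p = 0.000486), or 3.06-fold lower, and -1.76 after quantile normalization (limma adjusted p = 0.000513). With background correction by normexp, which adds an offset and so compresses dim probes, it was -0.66 and still past the threshold. Pdha1, the E1 alpha subunit on which the kinases act, measured 3.01, 2.90 and 3.08 in controls against 3.60, 3.76 and 3.58. Its groups did not overlap under either scaling. It rose by 0.65 (SE 0.12, limma adjusted p = 0.00362) with the 75th percentile, but the difference was 0.17 (limma adjusted p = 0.199) after quantile normalization.

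The other subunits gave no call. Dlat, the E2 acetyltransferase, differed by 0.13 (SE 0.13, limma adjusted p = 0.424) by its brightest probe, from 3 control and 2 PGC-1α values. Its other probe differed by -0.37 (SE 0.13, limma adjusted p = 0.0437 in the fit of all probes), so the Dlat probes disagree. Dld, the E3 dehydrogenase shared with other 2-oxo acid complexes, read 1.66 and 2.57 on 2 control arrays and 2.62, 2.29 and 2.79 on the PGC-1α arrays. The control values alone spanned 0.91 and the groups overlapped. The difference was 0.45 (SE 0.28, limma adjusted p = 0.212), and with the slide as a block 0.54 (limma adjusted p = 0.0335). Pdhb, the E1 beta subunit, was not tested, since outlier flags left 2 values in each group, 1.86 and 1.99 in controls against 2.26 and 2.45. A member needed all 3 arrays of a group well above background and unflagged.

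Among the kinases, Pdk2 was at -6.21, -5.96 and -6.31 in control cells, against -5.16, -4.58 and -5.61 in PGC-1α cells. The groups did not overlap, but the probe was dim, and it was well above background on 2 of the 3 control arrays, so it entered the test only through the group where it was high. With no filter on dim probes its limma adjusted p was 0.0241. The other p-values given for Pdk2 come after selection by the group where it was high, so they are no independent support. The difference was 1.05 (SE 0.25, limma adjusted p = 0.00832), or 2.07-fold higher, and 0.81 (limma adjusted p = 0.0183) after quantile normalization. With normexp it was 0.79 with the 75th percentile and 0.34 with quantile normalization, past the threshold in both. Pdk3 was at 1.73, 1.49 and 1.79 in controls and at 2.24, 2.27 and 2.28 in PGC-1α cells. The PGC-1α arrays lay within 0.05 of each other and all above the controls. The difference was 0.60 (SE 0.13, limma adjusted p = 0.00585), or 1.51-fold higher, and 0.37 (limma adjusted p = 0.0384) after quantile normalization. Of the alternatives run, only normexp with quantile normalization ended the call, with a limma adjusted p of 0.0534.

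Pdk1, the kinase known to be induced by hypoxia, rose by 0.57 (SE 0.17, limma adjusted p = 0.0201) with the 75th percentile, from 1.37, 1.30 and 0.98 to 1.95, 1.88 and 1.53. The groups did not overlap, and after quantile normalization they still did not, with a difference of 0.39 (limma adjusted p = 0.0781). Its other tested probes differed by 0.22 and 0.31. The call was lost without control replicate 3, without PGC-1α replicate 1 and without PGC-1α replicate 2. Pdk4, the kinase known for its response to fasting, did not pass the filter on dim probes and was not tested.

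The phosphatases gave unlike results. Pdp1, a catalytic subunit of pyruvate dehydrogenase phosphatase, was at -2.33, -2.54 and -2.50 in controls and at -3.80, -4.11 and -3.64 in PGC-1α cells. Every PGC-1α array was more than 1 log2 unit below every control array. The difference was -1.39 (SE 0.15, limma adjusted p = 0.000409), or 2.63-fold lower, and -1.49 (limma adjusted p = 0.000694) after quantile normalization. A second probe, of another transcript, gave -1.45 (SE 0.17). With normexp the difference was -0.75, still past the threshold. Pdp2, the other catalytic subunit, was at 6.18, 6.23 and 6.25 in controls and at 6.67, 7.06 and 6.71 in PGC-1α cells, all higher. It rose by 0.59 (SE 0.14, limma adjusted p = 0.00888) with the 75th percentile, whereas after quantile normalization the groups overlapped, with a difference of 0.01 (limma adjusted p = 0.949). At this brightness quantile-normalized values recurred between arrays, with 6.52 and 6.47 in both groups. The second Pdp2 probe, of the same transcript and also well above background on all arrays, was far dimmer. It was at -0.84 to -0.27 in controls and at -0.70 to -0.46 in PGC-1α cells. This probe differed by -0.06 (SE 0.17) with the 75th percentile, so the Pdp2 probes disagree in level and in difference.

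**Figure D2:**
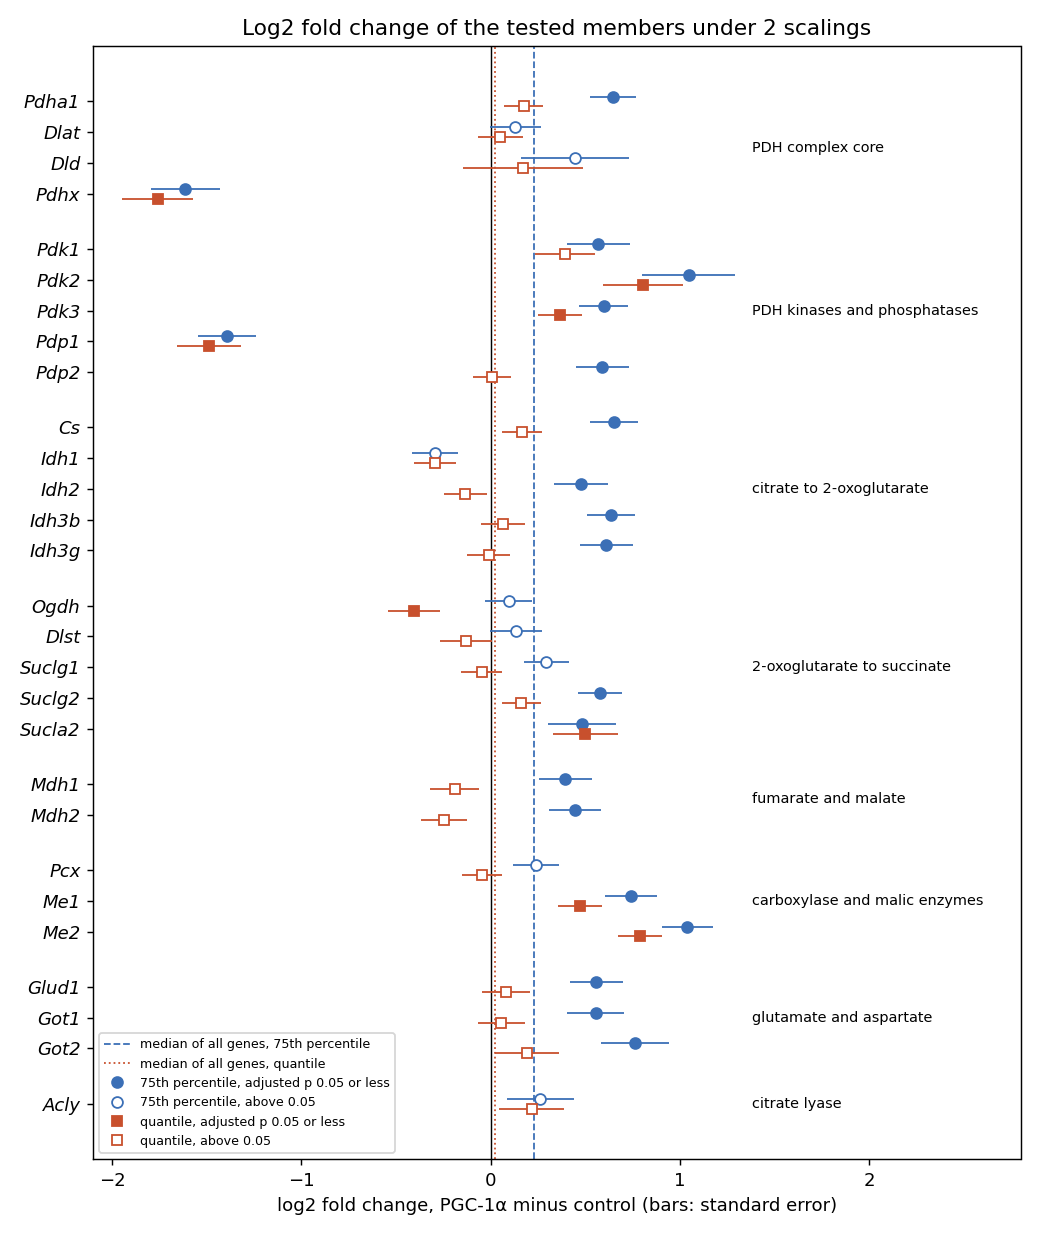
Log2 fold change, PGC-1α minus control, with its standard error for the 28 tested members (vertical axis, grouped by role), with the 75th percentile (circles) and quantile normalization (squares), filled at an adjusted p of 0.05 or less. Dashed and dotted lines are the medians of all genes, 0.23 and 0.03, and most enzymes of the cycle lie right of 0 with the first scaling and near 0 with the second.

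Of citrate synthase and the isocitrate dehydrogenases, 4 of 5 tested members were higher with the 75th percentile and none after quantile normalization. Cs, citrate synthase, the entry step of the cycle, was at 3.16, 3.06 and 3.30 in controls and at 3.80, 3.95 and 3.74 in PGC-1α cells, a difference of 0.65 (SE 0.13, limma adjusted p = 0.00414). After quantile normalization the groups still did not overlap, with a difference of 0.17 (limma adjusted p = 0.239). Its second probe gave 0.44 (SE 0.12). Idh3b and Idh3g, subunits of the NAD-dependent isocitrate dehydrogenase, differed by 0.64 (SE 0.13) and 0.61 (SE 0.14), with values of 3.58 to 3.76 and 4.03 to 4.17 in controls against 4.18 to 4.40 and 4.54 to 4.93. After quantile normalization their groups overlapped, at 0.07 and -0.01. A second Idh3g probe gave 0.36 (SE 0.15, limma adjusted p = 0.0698 in the fit of all probes), and -0.21 after quantile normalization. The catalytic subunit Idh3a was not tested, with 1.61 and 1.50 in controls against 2.12 and 1.99, and without the filter it differed by 0.50 (limma adjusted p = 0.0835).

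The NADP-dependent isocitrate dehydrogenases had differences of opposite sign with the 75th percentile. Idh2, the mitochondrial enzyme, was at 4.15, 4.13 and 4.07 in controls and at 4.48, 4.86 and 4.45 in PGC-1α cells, a difference of 0.48 (SE 0.14, limma adjusted p = 0.0226). After quantile normalization it differed by -0.13 and the groups overlapped, and with the 75th percentile the call was lost without any one of the control arrays. Idh1, the cytosolic enzyme, was at 0.24, 0.03 and 0.12 in controls and at -0.20, -0.21 and -0.09 in PGC-1α cells. It was lower on every PGC-1α array under both scalings, but by -0.29 (SE 0.12, limma adjusted p = 0.0672) it missed the threshold, and its second probe gave -0.37 (SE 0.25). The difference between Idh1 and Idh2 was not tested.

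From 2-oxoglutarate to succinate, Sucla2, the ATP-forming beta subunit of succinyl-CoA ligase, was called under both scalings. It was at -0.92, -0.44 and -0.49 in controls and at -0.01, -0.39 and 0.01 in PGC-1α cells. The lowest PGC-1α array lay only 0.05 above the highest control array. The difference was 0.48 (SE 0.18, limma adjusted p = 0.0463) and 0.50 (limma adjusted p = 0.0454) after quantile normalization, and it missed the threshold in 10 other settings, among them without 5 of the 6 arrays in turn. Suclg2, the GTP-forming beta subunit, was at 2.69, 2.67 and 2.77 in controls and at 3.31, 3.35 and 3.22 in PGC-1α cells. The difference was 0.58 (SE 0.12, limma adjusted p = 0.00436), and 0.16 (limma adjusted p = 0.232) after quantile normalization. All 3 of its probes were past the threshold with the 75th percentile, at 0.58, 0.47 and 0.71, and the last remained so after quantile normalization at 0.54 (limma adjusted p = 0.00974 in the fit of all probes).

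The other members of this stretch gave no call with the 75th percentile. Suclg1, the alpha subunit common to both ligases, was at 2.53, 2.41 and 2.39 in controls and at 2.799, 2.78 and 2.63 in PGC-1α cells, all higher. It differed by 0.29 (SE 0.12, limma adjusted p = 0.0657), was past the threshold with the slide as a block (limma adjusted p = 0.0494), and differed by -0.05 after quantile normalization. Dlst, the E2 subunit of 2-oxoglutarate dehydrogenase, was at 2.02, 1.93 and 2.27 in controls and at 2.27, 2.10 and 2.25 in PGC-1α cells, which overlap. It differed by 0.13 (SE 0.14) and by -0.13 after quantile normalization. Ogdh, the E1 subunit of that complex, was at 3.37, 3.53 and 3.53 in controls and at 3.61, 3.43 and 3.68 in PGC-1α cells, and the groups overlapped. Its difference was 0.09 (SE 0.13, limma adjusted p = 0.541). After quantile normalization the values were 3.64, 3.82 and 3.75 against 3.43, 3.09 and 3.48, all lower, by -0.41 (limma adjusted p = 0.0454).

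The malate dehydrogenases had opposite signs under the scalings. Mdh2, the mitochondrial enzyme, was at 4.62, 4.58 and 4.63 in controls and at 5.15 and 4.97 on 2 PGC-1α arrays, all higher, by 0.45 (SE 0.14, limma adjusted p = 0.0295). The call was lost without any one of the control arrays and without PGC-1α replicate 2. After quantile normalization the same arrays read 5.01, 4.91 and 4.87 against 4.69 and 4.67, all lower, by -0.25 (limma adjusted p = 0.144). Mdh1, the cytosolic enzyme, was at 3.997 and 3.93 on 2 control arrays and at 4.34, 4.46 and 4.27 in PGC-1α cells. It differed by 0.39 (SE 0.14, limma adjusted p = 0.0451), and by -0.19 (limma adjusted p = 0.273) after quantile normalization, again with every array on the other side. With the 75th percentile its call was lost without any one of the 6 arrays, with median scaling, with no filter and with the replicate block (limma adjusted p = 0.0968). A second Mdh1 probe gave 0.35 (SE 0.14, limma adjusted p = 0.0663 in the fit of all probes), and -0.13 after quantile normalization. Fh1, fumarate hydratase, was not tested. Its values were 2.71 and 3.33 in controls and 3.31 and 3.36 in PGC-1α cells.

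Of the enzymes that supply or withdraw malate and oxaloacetate, the malic enzymes were higher under both scalings. Me2, the mitochondrial NAD-dependent malic enzyme, which makes pyruvate from malate, was at 1.54, 1.42 and 1.72 in controls and at 2.49, 2.74 and 2.57 in PGC-1α cells. The groups lay 0.77 apart at their nearest. The difference was 1.04 (SE 0.14, limma adjusted p = 0.000807), or 2.05-fold higher, and 0.79 (limma adjusted p = 0.00194) after quantile normalization, and it passed the threshold in all 19 tested alternatives. Me1, the cytosolic NADP-dependent enzyme, was at 1.74, 1.67 and 1.74 in controls and at 2.40 and 2.53 on 2 PGC-1α arrays, the other one being flagged. The difference was 0.74 (SE 0.14, limma adjusted p = 0.0042) and 0.47 (limma adjusted p = 0.0175) after quantile normalization. A second, dimmer probe gave 0.71 (SE 0.27, limma adjusted p = 0.0567 in the fit of all probes). With the mean of the probes Me1 missed the threshold at 0.43. On the flagged array that mean held only the dimmer probe, at 0.68, so the 0.43 does not show that the probes disagree. Pcx, pyruvate carboxylase, which makes oxaloacetate from pyruvate, was at 2.15, 2.13 and 2.05 in controls and at 2.22, 2.45 and 2.37 in PGC-1α cells. It was higher on every PGC-1α array, by 0.24 (SE 0.12, limma adjusted p = 0.122), but after quantile normalization the groups overlapped at -0.04.

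The enzymes that link the cycle to glutamate and aspartate were all higher with the 75th percentile. Got2, the mitochondrial aspartate aminotransferase, was at 3.83, 3.56 and 3.37 in controls and at 4.25, 4.65 and 4.15 in PGC-1α cells, a difference of 0.76 (SE 0.18, limma adjusted p = 0.00853). Got1, its cytosolic counterpart, was at 3.35, 3.09 and 3.15 against 3.63, 3.999 and 3.62, a difference of 0.55 (SE 0.15, limma adjusted p = 0.0152). Glud1, glutamate dehydrogenase, was at 3.06 and 3.03 on 2 control arrays against 3.65, 3.68 and 3.49, a difference of 0.56 (SE 0.14, limma adjusted p = 0.0135). In all 3 genes the groups did not overlap with the 75th percentile, though the Got1 call was lost without control replicate 2 and the Glud1 call without control replicate 2, control replicate 3 or PGC-1α replicate 1. After quantile normalization they did overlap, and the differences were 0.19, 0.06 and 0.08. Acly, which splits exported citrate to acetyl-CoA in the cytosol, overlapped between the groups at 0.26 (SE 0.18, limma adjusted p = 0.231).

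Much of the difference between the scalings went with signal. Of the 28 tested members, 21 were among the brightest 4265 of the 17058 genes tested, a limit chosen after the values were seen. Of these 21, 16 were higher and 0 lower with the 75th percentile, where 45.7% of those 4265 genes were higher and 4.76% lower. Their median difference was 0.57, with 0.35 for the 4265, and after quantile normalization 0.07, with -0.03. Of the 7 dimmer members, 2 were higher and 2 lower, where 33.9% and 24.5% of the 12793 dimmer genes were, with a median of 0.13, and 0.14 for those genes. Genes of like signal, taken after the values were seen as those within 0.5 of a member's mean level, give a nearer reference. The 1391 genes as dim as Pdk2 had a median difference of 0.63, and 0.39 after quantile normalization, beside 1.05 and 0.81 for Pdk2. Those as dim as Pdhx and Pdp1 had medians of 0.44 and 0.33, on the other side of 0 from both members. Those as bright as Me2 had a median of 0.21 and those as bright as Pdk3 one of 0.19, below 1.04 and 0.60. Those as bright as Idh2 and Mdh2 had medians of 0.57 and 0.61, above the 0.48 and 0.45 of these members, and those as bright as Cs one of 0.48, below its 0.65. These are descriptions and were not tested.

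Of the 22 members with a value on every array, the groups did not overlap in 19, 16 higher and 3 lower, where 65.5% of all such genes did not overlap in either direction. After quantile normalization 8 were higher on every PGC-1α array and 4 lower, where 29.6% and 28.2% of all such genes were. With 3 arrays against 3, an exact two-sided permutation test of 1 gene cannot go below p = 0.1.

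**Figure D3:**
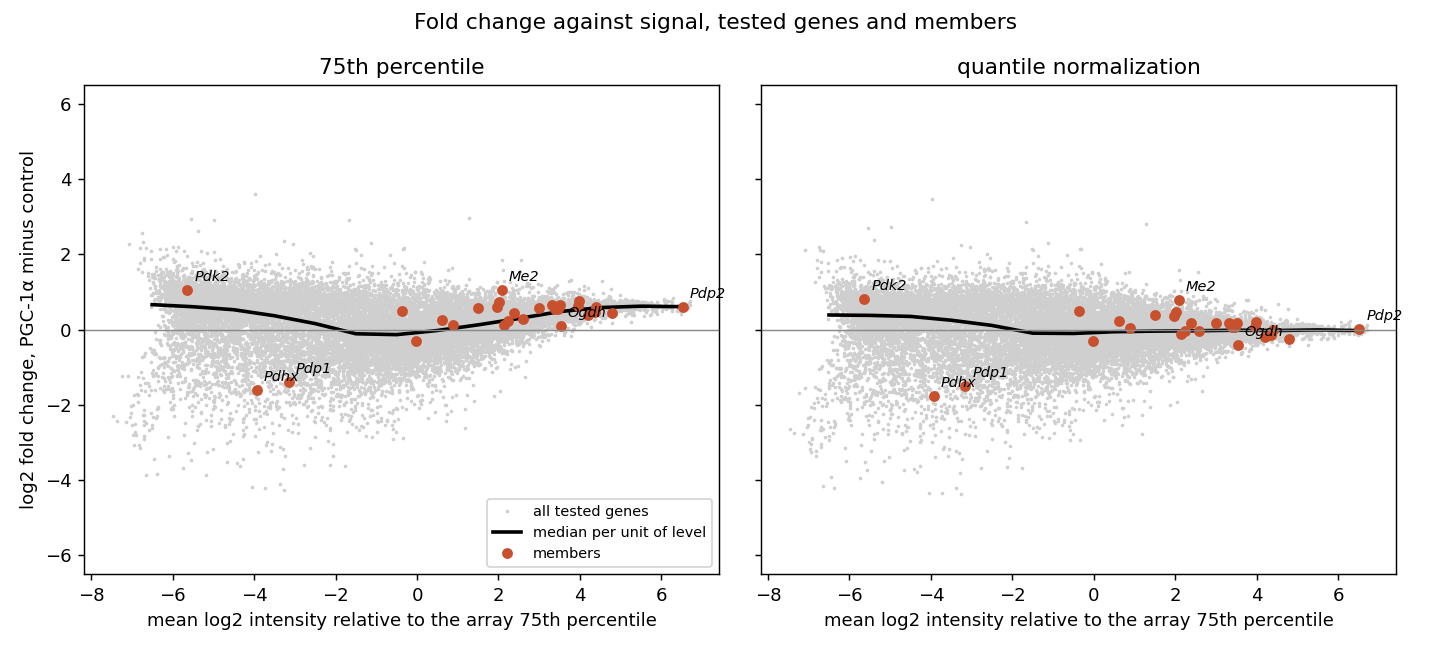
Log2 fold change, PGC-1α minus control (vertical axis), against the mean log2 intensity relative to the array 75th percentile (horizontal axis), for the 17058 tested genes (grey), the 28 members (red) and the median of genes per unit of level (black line), with each scaling. With the 75th percentile the line rises above 0 for bright genes, where 21 of the members lie, and after quantile normalization it lies near 0 there, while Pdhx and Pdp1 stay low and Me2 and Pdk2 high.

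Each slide held arrays of both groups, 2 of each on one slide and 1 of each on the other. With the slide as a block, 20 members were higher and 2 lower, where 42.4% and 21.6% of all genes tested were. On the first slide alone it was 16 and 2, where 34.3% and 17.8% of all genes were. On the other slide, with 1 array of each group and so no test, 23 of 27 members were above 0 and 4 below, where 62.4% of all 16974 genes with a value were above 0. Me2 differed by 1.13 on the first slide and 0.85 on the second, Pdhx by -1.54 and -1.75, Pdp1 by -1.52 and -1.14, and Pdk2 by 1.22 and 0.71. All 4 thus kept their direction on each slide.

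Of the 31 members, 15 had several probes, and 11 had more than 1 that could be tested. In 9 of the 11 all tested probes of a gene lay on the same side of 0, and the exceptions were Dlat and Pdp2. No member had probes past the threshold in opposite directions.

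**Figure D4:**
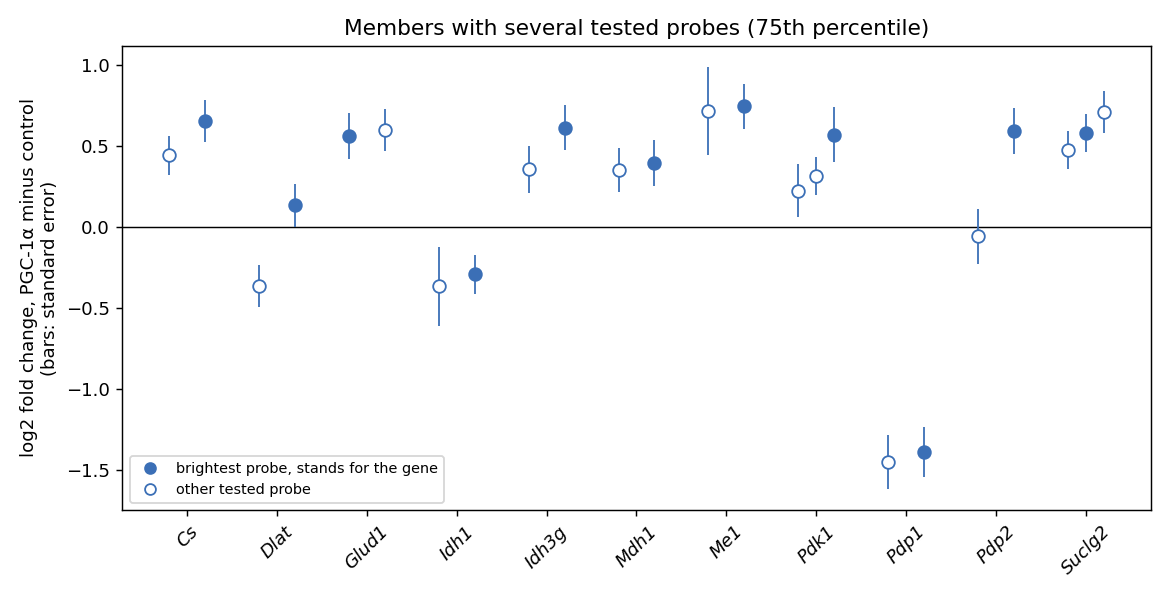
Log2 fold change, PGC-1α minus control, with its standard error (vertical axis, 75th percentile) for each tested probe of the 11 members with several tested probes. Filled points are the brightest probe, which stands for the gene, and both Pdp1 probes lie at or below -1.39, while the Dlat and Pdp2 probes lie on both sides of 0.

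Of 35 other genes of these pathways, taken as a list of transporters, cofactor enzymes and alternative routes, 31 were tested. With the 75th percentile 16 were higher and 3 lower, where 36.9% and 19.6% of all genes were, with a median of 0.40. After quantile normalization it was 6 and 3, where 23.1% and 22.3% of all genes were, with a median of 0.06. The 3 lower genes were lower under both scalings. Acod1, which makes itaconate from the cycle intermediate cis-aconitate and is strongly induced by LPS, was at 1.59, 1.60 and 1.44 in controls and at -0.57, -0.56 and -0.78 in PGC-1α cells. It fell by 2.18 (SE 0.13, limma adjusted p = 2.9e-05), or 4.52-fold. Lipt1, a lipoyl transferase that serves the 2-oxo acid dehydrogenase complexes, fell by 0.82 (SE 0.13) and Slc25a13, a mitochondrial aspartate-glutamate carrier, by 0.56 (SE 0.11).

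Among those higher under both scalings were Slc25a1, the mitochondrial citrate carrier, by 0.90 (SE 0.16) and 0.52 after quantile normalization, and Bckdha, a subunit of branched-chain keto acid dehydrogenase, by 0.65 and 0.38. Glul, glutamine synthetase, was higher by 0.78 and 0.40 by its brightest probe. Its other probes differed by 0.72 and -0.18 with the 75th percentile, so the Glul probes disagree. D2hgdh was higher by 0.69 and 0.71 by its brightest probe, of a predicted transcript, while its other probes, of curated transcripts, differed by -0.41 and -0.22 with the 75th percentile. Me3, the mitochondrial NADP-dependent malic enzyme, was not well above background on any control array, so its difference is a bound of at least 2.28-fold higher, taken against the higher of its own signal and the lowest signal well above background on each control array (limma adjusted p = 0.000992). It passed the filter only through the group where it was bright, so that p is no support for the difference. Of the succinate dehydrogenase subunits, Sdha, Sdhc and Sdhd were higher by 0.49, 0.48 and 0.76 with the 75th percentile, Sdhb differed by 0.29 (limma adjusted p = 0.142), and none of the 4 was past the threshold after quantile normalization.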

How the data were processed

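RNA of LPS-treated BV2 cells was measured on 6 one-colour Agilent arrays, 3 per group, with groups, replicate numbers and slides taken from the labels. The authors scanned the arrays with Agilent Feature Extraction 11.5.1.1, and its background-subtracted intensity values were deposited as they left the scanner, not normalized between arrays. A table of log2 values that the authors normalized in GeneSpring, by a procedure not given in the sources used here, was deposited too and served as an alternative. The design of the arrays names the build mm9, so no probe coordinates are given. Each array had 62976 spots, 59305 of them not controls, and 41122 to 45165 of its spots were well above background. The number of arrays limits the precision.

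After taking log2, the 75th percentile of the non-control spots was subtracted array by array, 149 to 1590 spots per array with an outlier flag were dropped and repeats of a probe averaged. Accessions matched 33762 of 56605 probes to 1 gene in a RefSeq table of GRCm38.p6. Testing required 2 or more values per group and, in 1 group or both, a signal well above background on all 3 arrays. Each gene was represented by its brightest probe that met this. Where an array lacked a value, the fit used the others. Two-sided tests were made in R 4.3.3 with limma 3.58.1 (lmFit, eBayes), p-values were adjusted over 17058 genes by Benjamini-Hochberg, and the steps were tested on simulated data. Alternatives were quantile normalization, median scaling, normexp with an offset of 50 under either scaling, looser and stricter filters on dim probes, averaging of probes within genes, a block for the slide or for the replicate number, a trended variance, the log2 values of the authors, each slide alone, each array left out and a 2-fold limit. Tables were made with Python 3.11.15, pandas 2.3.3 and numpy 2.4.6, permutation tests with scipy 1.17.1 and plots with matplotlib 3.10.9. The members and lists were chosen with earlier results of these data known. Every member and every gene of the second list could be named. Some genes of that list are not reported here by name. Values on each array, or their range, were given for members called under both scalings and for those that lost a call or sign under the other scaling.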

Additional observations from a re-analysis of the deposited data

How the results depend on the processing

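Of 18 members called higher with the 75th percentile, quantile normalization left 5, normexp with quantile normalization 3, the authors' log2 values 5, and replicate block and quantile normalization together, chosen after seeing the data, 5. The total of 20 called members became 8, 6, 8 and 7 in the same order, and 4 with a 2-fold limit, which is stricter by construction. Leaving out each array left 12 to 16 higher, 2 lower and 14 to 18 in all. The 19 called genes of the second list became 9 with quantile normalization, with the authors' values and with the replicate block and quantile normalization, 11 with median scaling, 12 with no filter on dim probes and 12 to 16 without 1 array. The median of the members relative to all genes, 0.29, became 0.036 with quantile normalization, 0.033 with the authors' values, 0.14 with no filter on dim probes, 0.054 with normexp followed by quantile normalization and 0.023 with the replicate block and quantile normalization.

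Some members changed sign. With quantile normalization, normexp and quantile normalization, the authors' values, and the replicate block and quantile normalization, in this order, Idh2 was at -0.13, -0.14, -0.12 and -0.13, Ogdh at -0.41, -0.49, -0.39 and -0.41, Dlst at -0.13, -0.10, -0.12 and -0.13, Suclg1 at -0.047, -0.051, -0.052 and -0.047, Mdh1 at -0.19, -0.11, -0.20 and -0.16, and Mdh2 at -0.25, -0.17, -0.17 and -0.21. Pcx was at -0.044 with quantile normalization, -0.043 with the authors' values and -0.044 with quantile normalization and the block. Idh3g was at -0.0088 with quantile normalization, with and without the block. Ogdh was also at -0.016 with median scaling and -0.027 with normexp and the 75th percentile. Dlst was at -0.024 on the second slide and Pdp2 at -0.010 with normexp and quantile normalization. Dlat was at -0.37 with probes well above background on all 6 arrays, which is its dimmer probe, and at -0.72 with the mean of its probes. On PGC-1α replicate 1 that mean held only the dimmer probe, at -2.65, so the -0.72 reflects a missing value and not the probes alone. Dld ranged from -0.0081, without control replicate 1, to 0.90 with 1 array left out. Across the alternatives, 435 differences of single members kept their direction and, where tested, their side of the threshold, 77 lost the call, 7 gained one and 36 changed sign. Of the 435, 26 were from the second slide alone, which allows no test, and kept their direction only. Pdhx, Pdp1 and Me2 were past the threshold in the same direction in every tested alternative. Pdk2 was so in each that tested it, but it did not meet the filter of a signal well above background on all 6 arrays. It passed the main filter only through the PGC-1α arrays, where it was high, so its passes with that filter are no independent support. With no filter its limma adjusted p was 0.0241. Of the 20 calls, 13 held without each array in turn, and those of Sucla2, Mdh1, Mdh2, Idh2, Glud1, Got1 and Pdk1 did not. The cause was not tested.

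The same replicate numbers did not pair the samples consistently, with correlations of deviations of -0.16, 0.07 and 0.60 over 16292 genes. The 0.60 is of replicate 3, whose arrays are the only ones on the second slide, so number and slide cannot be told apart there. Between unlike numbers the correlations ran from -0.51 to 0.50. The replicate block gave 18 higher and 2 lower members. Dim probes such as that of Pdk2 are limited by the background.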

Other observations

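The probes of D2hgdh, which oxidizes D-2-hydroxyglutarate to 2-oxoglutarate, pointed in opposite directions. Its 3 probes differed by 0.69 (limma adjusted p = 0.0312 in the fit of all probes), -0.41 (limma adjusted p = 0.0415) and -0.22 (limma adjusted p = 0.423). The first, the brightest, is of a predicted transcript and stands for the gene in the report. The last 2 are of curated transcripts. This was noticed after the values were seen.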
